A study of Mus musculus with 72 samples.

Results

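The 10 genes described here are the TEAD transcription factors Tead1, Tead2, Tead3 and Tead4 and 6 genes of the Hippo kinase arm upstream of them, the kinases Lats1, Lats2, Stk3 and Stk4 and the regulators Nf2 and Amotl2. They were taken by name from a table of read counts for 50600 genes, whatever their values, and all 10 were found once and passed the filter on low counts in every line. The table holds mRNA-seq counts of mouse melanoma cell lines that were stimulated through the gastrin-releasing peptide receptor (GRPR), a G-protein-coupled receptor. After 18 h of starvation, cells spent 4 h in medium of 0.5% serum with 0.1% DMSO (mock), with 10 nM gastrin-releasing peptide (GRP, the receptor's ligand), with 1 µM of the GRPR antagonist RC-3095 (RC), or with both (GRP+RC). Each of 6 lines received the 4 treatments in 3 libraries each, 72 libraries in all, and the question put to the 10 genes was how high each stood in each resting line and how far GRP, RC or both moved it.

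All 6 lines carried the melanocyte-driven oncogene Tyr::NRASQ61K/°. Lines 1057 and 1064 are female, Cdkn2a-/-, Tyr::CreA/° and Cdh1dF/dF, that is, with E-cadherin deleted by a Cre expressed in the melanocyte lineage, and are labelled positive for GRPR. Line 1181 is male, Cdkn2a-/- and Cdh1dF/dF but °/° for Cre, and line 1014 is female with no other allele named in its label. Both were used as a pair of derivatives, one given a CMV::tGFP plasmid (1181-Ctrl and 1014-Ctrl) and one CMV::Grpr/tGFP (1181-Grpr and 1014-Grpr), so that their receptor came from a viral promoter in selected cells of 1 parental line. 1057, 1064, 1181-Grpr and 1014-Grpr are called the 4 GRPR-expressing lines below. The labels number 3 samples per group and do not say whether these were separate cultures, so p-values measure the spread between these samples, which may be technical.

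Background on the pathway helps to order the genes. In Hippo signalling the kinases MST2 (Stk3) and MST1 (Stk4) activate the kinases LATS1 and LATS2, which phosphorylate the co-activators YAP and TAZ and keep them out of the nucleus. Merlin, the product of Nf2, promotes LATS activation at the membrane, and AMOTL2, an angiomotin, binds YAP and holds it in the cytoplasm. Nuclear YAP and TAZ have no DNA-binding domain of their own and act through TEAD1 to TEAD4, and Lats2 and Amotl2 are themselves well-known YAP targets, in a negative feedback. Much of the control of the pathway is by phosphorylation and location of the proteins, which mRNA counts do not report.

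The genes lie on 10 loci of GRCm38, given here from GENCODE release 21. The TEAD genes are Tead1 at chr7:112679318-112906807 on the plus strand, Tead2 at chr7:45215753-45233644 on the plus strand, Tead3 at chr17:28331671-28350817 on the minus strand and Tead4 at chr6:128224288-128300823 on the minus strand. The kinases are Lats1 at chr10:7681214-7716460 (plus), Lats2 at chr14:57689662-57758388 (minus), Stk3 at chr15:34875496-35178921 (minus) and Stk4 at chr2:164070322-164155524 (plus). Nf2 lies at chr11:4765845-4849536 (minus) and Amotl2 at chr9:102716672-102733418 (plus). All are protein coding. Values are summed over all exons of a gene, untranslated regions included. Lats2 is the uncertain one, since 42.4% of its exon bases are also exon of Gm49361 on the same strand in that annotation. Where both are annotated, reads there cannot be given to 1 of the genes. The authors name an earlier GENCODE release for their counts, and the overlap was not checked in it.

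RefSeq (GRCm38.p6) start sites, with a window of 250 bases before and 50 after each, were at hand for 7 of the 10 genes (not Tead1, Tead4 or Stk3). The windows were searched on both strands for the core TEAD site GGAATG, which 14.7% of all 32851 mouse windows of this length hold. That share is per window and some of the 7 genes have several windows, so it is not a background for a count of genes. The site was found near Lats2, Amotl2 and Tead3, the first a kinase, the second a YAP-binding scaffold and the third a TEAD gene itself. Whether it is more frequent near the genes described here than near others was not tested. Those windows are printed to show where the site lies in each. They run 5′ to 3′ on the gene's strand, and capitals mark GGAATG or its reverse complement CATTCC. The Lats2 window is chr14:57746074-57746373 (minus strand), the Amotl2 window chr9:102717554-102717853 (plus strand) and the Tead3 window, the second of its 3, chr17:28350551-28350850 (minus strand).
Lats2: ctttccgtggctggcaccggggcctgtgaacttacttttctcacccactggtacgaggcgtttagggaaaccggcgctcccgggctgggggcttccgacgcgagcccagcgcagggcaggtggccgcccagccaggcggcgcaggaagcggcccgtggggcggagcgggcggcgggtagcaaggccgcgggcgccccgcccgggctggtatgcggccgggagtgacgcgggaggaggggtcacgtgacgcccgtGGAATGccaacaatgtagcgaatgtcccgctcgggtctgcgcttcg
Amotl2: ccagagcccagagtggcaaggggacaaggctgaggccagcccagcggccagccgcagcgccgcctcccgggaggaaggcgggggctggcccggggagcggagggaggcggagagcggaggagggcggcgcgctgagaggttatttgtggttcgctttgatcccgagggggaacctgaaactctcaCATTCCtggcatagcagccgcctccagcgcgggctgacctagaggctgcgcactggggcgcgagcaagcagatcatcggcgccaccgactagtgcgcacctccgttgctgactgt
Tead3: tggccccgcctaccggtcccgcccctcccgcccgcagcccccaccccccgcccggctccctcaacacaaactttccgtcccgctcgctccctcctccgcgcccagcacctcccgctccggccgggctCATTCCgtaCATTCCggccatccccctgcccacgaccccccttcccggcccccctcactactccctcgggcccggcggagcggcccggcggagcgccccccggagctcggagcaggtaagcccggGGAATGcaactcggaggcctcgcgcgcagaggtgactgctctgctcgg
The Lats2 match begins 4 bases after the start site and the Amotl2 match 65 bases before it. This Tead3 window holds 3 matches, and a further Tead3 window holds 1. None of the windows of the 7 genes held an AP-1 site (TGANTCA), a cAMP response element (TGACGTCA) or a CArG box, which 7.81%, 1.79% and 1.63% of all windows hold. A match of letters is a description and not a bound site.

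Before the genes, the libraries. Total counts ran from 19512882 to 46862053 per library. Of the 72 libraries, 2 went against their labels for the Y-linked gene Ddx3y and for Grpr and were left out of all tests below, which leaves 2 libraries in their groups. The library labelled 1181-Grpr GRP+RC replicate 2 had no count of Ddx3y or Grpr, and the library labelled 1014-Ctrl mock replicate 2 held Ddx3y at 67.7 and Grpr at 50.6 CPM (counts scaled to library size). The former held Xist at 826 and Cdh1 at 4.79 CPM, and the latter Xist at 181 and Cdh1 at 23.9 CPM. On these genes each of the 2 libraries resembled the line named on the other, and an exchange was not tested. Their Tead2 levels, 16.9 and 119 CPM, lay far from the other libraries of their groups (109 to 123 and 16.4 to 17.1 CPM). In the rest Grpr followed the labels, at 393 to 1171 CPM in 1064, 166 to 254 in 1057, 112 to 596 in 1014-Grpr and 8.97 to 87.6 in 1181-Grpr against at most 0.101 in the 2 control lines. Cdh1 was at most 0.107 CPM in 1057 and 1064, 10.3 to 29.9 CPM in the 1181 derivatives, whose label names the same Cdh1 allele without Cre, and 0.662 to 5.31 CPM in the 1014 derivatives. All 11 remaining libraries of 1181-Grpr, labelled male, also held Xist, at 205 to 272 CPM, beside Ddx3y at 40.6 to 67.2 CPM, whereas Xist was at most 0.71 CPM in 1181-Ctrl. What this means for results from 1181-Grpr was not tested. All 7 melanocyte markers were present in every line, with summed levels from 6021 to 39144 CPM, while fibroblast, immune, endothelial and keratinocyte markers summed to at most 61.2 CPM. These are bulk samples, so a lower level can be fewer cells that express a gene or less RNA per cell.

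In resting (mock-treated) cells the TEAD genes and Amotl2 set the lines apart, and the kinases did so less. Tead3 differed 11.4-fold between its highest and lowest line, Amotl2 9.86-fold and Tead2 9.64-fold. Tead4 differed 3.88-fold and Tead1 2.48-fold, whereas Lats1, Lats2, Stk3, Stk4 and Nf2 stayed within 1.49-fold to 1.79-fold. Over the 15 pairs of lines, 91 of 150 gene-by-pair differences passed the test (edgeR's quasi-likelihood test, Benjamini-Hochberg adjusted p under 0.05 over all genes tested, the rule for every call below), and 33 of them exceeded 2-fold. Over the same pairs 50.2% of all gene-by-pair differences passed and 25.9% passed with a change over 2-fold. Between 0.562% (the pair of 1014 derivatives) and 65.6% (1057 and 1181-Ctrl) of all 16901 genes passed in the same pairs, so the 10 genes were not a rare case of difference between lines.

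Within the TEAD family, levels can be compared between genes only per length, in the authors' TPM, which are scaled to gene length and library size. Tead2 made up most of the family's RNA in 1181-Ctrl (67.0% ± 1.5 of the summed TEAD level, SD, n = 3), 1057 (61.2% ± 0.47) and 1181-Grpr (60.2% ± 3.0). In the 1014 lines Tead1 led instead, with 61.5% ± 3.0 in 1014-Ctrl (n = 2) and 55.9% ± 6.7 in 1014-Grpr, and Tead2 gave 15.2% ± 0.52 and 22.3% ± 3.5. In 1064 Tead1 also led, in every mock library, with 47.5% ± 4.5 beside 36.6% ± 0.62 for Tead2. Summed over the family, the level was lowest in the 1014 lines (82.9 ± 2.8 TPM in 1014-Grpr and 84.2 ± 2.0 in 1014-Ctrl) and reached 194 ± 12 TPM in 1181-Ctrl.

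Tead2 was at 155, 156 and 154 CPM in the 3 mock libraries of 1057 and at 171, 162 and 151 CPM in 1181-Ctrl. It was at 27.1, 25.3 and 20.1 CPM in 1014-Grpr and at 17.1 and 16.4 CPM in the 2 libraries of 1014-Ctrl. The 1014 lines thus stood below all others without overlap. From the highest to the lowest mean the order was 1181-Ctrl, 1057, 1181-Grpr, 1064, 1014-Grpr and 1014-Ctrl, where the first and second (adjusted p = 0.71) and the fifth and sixth (adjusted p = 0.0757) did not differ beyond their spread. With all 72 libraries, those that failed the label check among them, 1057 and 1181-Grpr (adjusted p = 0.33) and 1181-Grpr and 1064 (adjusted p = 0.48) no longer differed.

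Tead3 was the scarcest TEAD gene in 1057, with 56, 57 and 54 reads in its mock libraries (1.72, 1.76 and 1.65 CPM). It was at 14.0, 22.5 and 22.2 CPM in 1181-Ctrl and at 6.76, 7.01 and 6.13 CPM in 1014-Grpr. 1064 lay in between, and its libraries spread widely, at 6.81, 2.24 and 1.94 CPM. Neighbours that did not differ were the 1181 derivatives (adjusted p = 0.38), the 1014 derivatives (adjusted p = 1) and 1014-Ctrl against 1064 (adjusted p = 0.0659). With all 72 libraries 1014-Ctrl and 1064 did differ (adjusted p = 6.58e-04). That fit puts back the 1014-Ctrl library that failed the label check, at 18.0 CPM beside 6.31 and 6.38 CPM in the others, so it is not a result about 1014-Ctrl.

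Tead4, the TEAD gene known for its role in the trophectoderm, was highest in 1064 at 38.7, 17.6 and 28.7 CPM. The other lines had means of 7.30 CPM (1181-Ctrl) to 14.0 CPM (1014-Ctrl), and among these no neighbours in the order differed. Tead1 was also highest in 1064, at 370, 322 and 327 CPM, and lowest in the 1181 derivatives, whose means of 144 and 137 CPM did not differ (adjusted p = 0.78). Below 1064, which stood above 1057 (adjusted p = 9.71e-04), no neighbours in the order of Tead1 passed. Lines further apart in the order did differ, and of all 15 pairs of lines 11 passed for Tead1 and 9 for Tead4.

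Of the LATS kinases, Lats1 was the more abundant per length in every line, with a mean share of 61.6% to 71.3% of the summed LATS level in TPM. Lats1 was highest in 1057 at 110, 115 and 116 CPM and lowest in the 1014 derivatives, at 70.0, 72.1 and 74.0 CPM in 1014-Grpr and 63.8 and 75.5 CPM in 1014-Ctrl. 1064, 1181-Grpr and 1181-Ctrl were between, at 91.3 to 94.0 CPM on average, and did not differ from each other as neighbours (adjusted p = 0.71 and 0.95). Lats2 had means of 41.1 to 61.5 CPM and passed in 0 of the 15 pairs (edgeR, adjusted p from 0.0807 to 1). Its highest mean, in 1064, came from libraries at 90.9, 33.3 and 60.3 CPM, a spread wider than that between the other lines.

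The MST kinases peaked in different lines. Stk3 was highest in the 1014 derivatives (means of 63.4 and 62.9 CPM, adjusted p = 1 between them) and lowest in 1064 at 38.5, 32.5 and 35.4 CPM, below 1057 (adjusted p = 0.0016). Stk4 was highest in 1064 (120 CPM) and lowest in 1181-Ctrl (80.6 CPM), a difference that passed (0.57, edgeR, adjusted p = 0.0022). It passed in 5 of the 15 pairs of lines, none of them neighbours in its order. In TPM, Stk3 made up 35.0% ± 1.5 of the summed MST level in 1064 and 56.0% ± 3.1 in 1014-Grpr (n = 3 each).

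Nf2 was highest in the 1181 derivatives, at 187, 219 and 209 CPM in 1181-Ctrl and 166, 194 and 195 CPM in 1181-Grpr, which did not differ (adjusted p = 0.23). It was lower in the other 4 lines, with means of 132 to 150 CPM that did not differ between neighbours. With all 72 libraries 1181-Grpr no longer stood above 1014-Ctrl (adjusted p = 0.33), a group that then holds the mock library that failed the label check. Amotl2 was at 8.33, 8.39 and 8.21 CPM in 1057, lower than in any mock library of another line, and at 70.1, 65.8 and 71.5 CPM in 1014-Grpr and 76.8 and 87.0 CPM in 1014-Ctrl. Between them stood 1181-Ctrl (29.3 CPM), 1181-Grpr (42.3 CPM) and 1064 (45.5 CPM), and 1057 was below 1181-Ctrl with adjusted p = 2.11e-08. Neighbours that did not differ were the 1014 derivatives, 1064 against 1181-Grpr and the 1181 derivatives.

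The Grpr and Ctrl derivatives of a parental line were also compared at rest. The counts of calls do not set the 10 genes apart from all genes. Between 1014-Grpr and 1014-Ctrl 0 of the 10 genes passed (edgeR, 1 of 10 at an unadjusted p under 0.05, and 1 by DESeq2), beside 0.562% of all genes. Between 1181-Grpr and 1181-Ctrl 1 passed, Tead2, beside 21% of all genes.

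**Figure D1:**
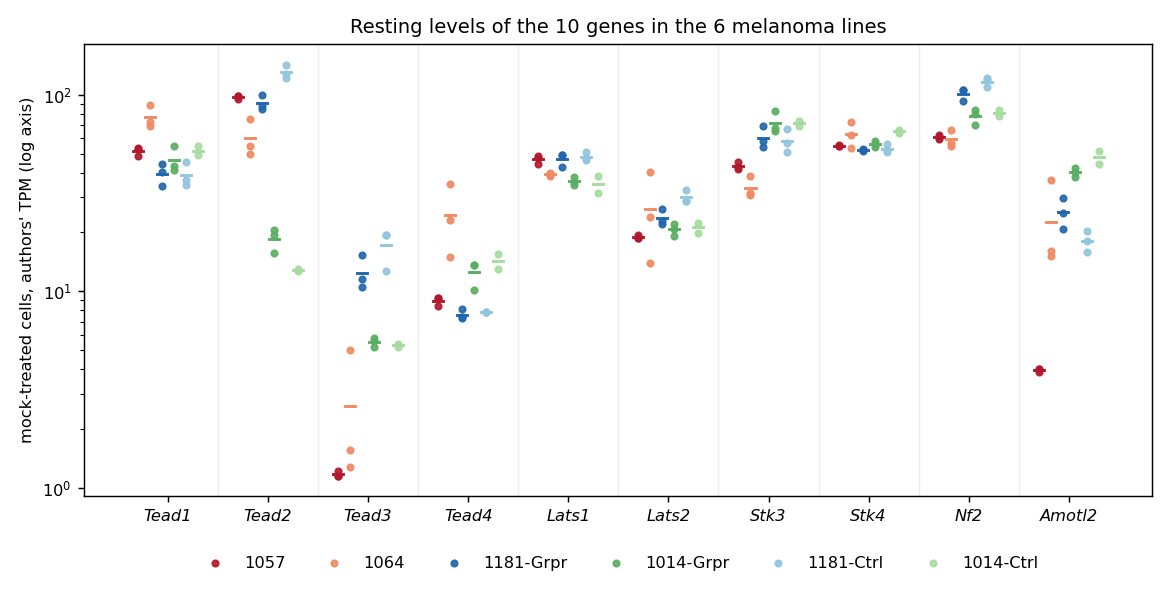
Each point is the authors' TPM (log axis) of 1 mock-treated library that passed the label check, coloured by line, and the dash is the mean of its line (n = 3, or n = 2 for 1014-Ctrl). Tead2, Tead3 and Amotl2 spread most between lines, and the points of the 1064 line spread most within a line for Tead3, Tead4, Lats2 and Amotl2.

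GRP gave calls among the 10 genes in 3 of the 4 GRPR-expressing lines. In 1057, 8 of 10 passed: Lats2, Amotl2, Tead4, Stk3 and Tead1 rose and Tead3, Tead2 and Nf2 fell. In 1 fit of all libraries, which shares 1 spread over all lines, 5 of these passed, without Tead1 (adjusted p = 0.10), Tead3 (adjusted p = 0.0655) and Nf2 (adjusted p = 0.33). No share of all genes is given for treatments in that fit, here or below. Its counts therefore do not compare the 10 genes with all genes. In 1014-Grpr 4 passed, with Tead1, Lats2 and Lats1 higher and Amotl2 lower. In 1064 only Stk3 passed, upwards, and in 1181-Grpr and both control lines 0 passed. The shares among all genes tested were 52.6% in 1057, 29.0% in 1014-Grpr, 6.38% in 1064 and 0% in the other 3 lines, so the 1057 count stands in a line where most genes passed. These shares depend on the spread between replicates too. In a fit that pairs replicates, described next, they were 43.5% in 1064 and 53.6% in 1014-Grpr. With a change over 2-fold as well, 2 genes passed in 1057 (Lats2 and Tead3), beside 6.46% of all genes. In the lines with 0 calls, edgeR gave 0 of the 10 genes at an unadjusted p under 0.05, and DESeq2 called 0.

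Replicate numbers paired the samples in 5 of the 6 lines, since libraries with the same number deviated together from their group means (mean correlation 0.402 to 0.792, every pair over 0.1), but not in 1057 (0.023). A fit with the replicate number as a block therefore stands beside the main values where it changes them. With the block, 7 genes passed in 1064, all higher (Lats2, Tead4, Amotl2, Stk3, Stk4, Tead1 and Lats1), beside 43.5% of all genes. In 1014-Grpr 8 passed with it, beside 53.6% of all genes, Tead4, Stk3 and Nf2 joining those that rose and Tead2 joining Amotl2 below. In 1181-Grpr it gave 0 of 10, beside 0.454% of all genes. The control lines gave 0 of 10 with it, beside 0% of all genes in 1181-Ctrl and 0.00718% in 1014-Ctrl.

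**Figure D2:**
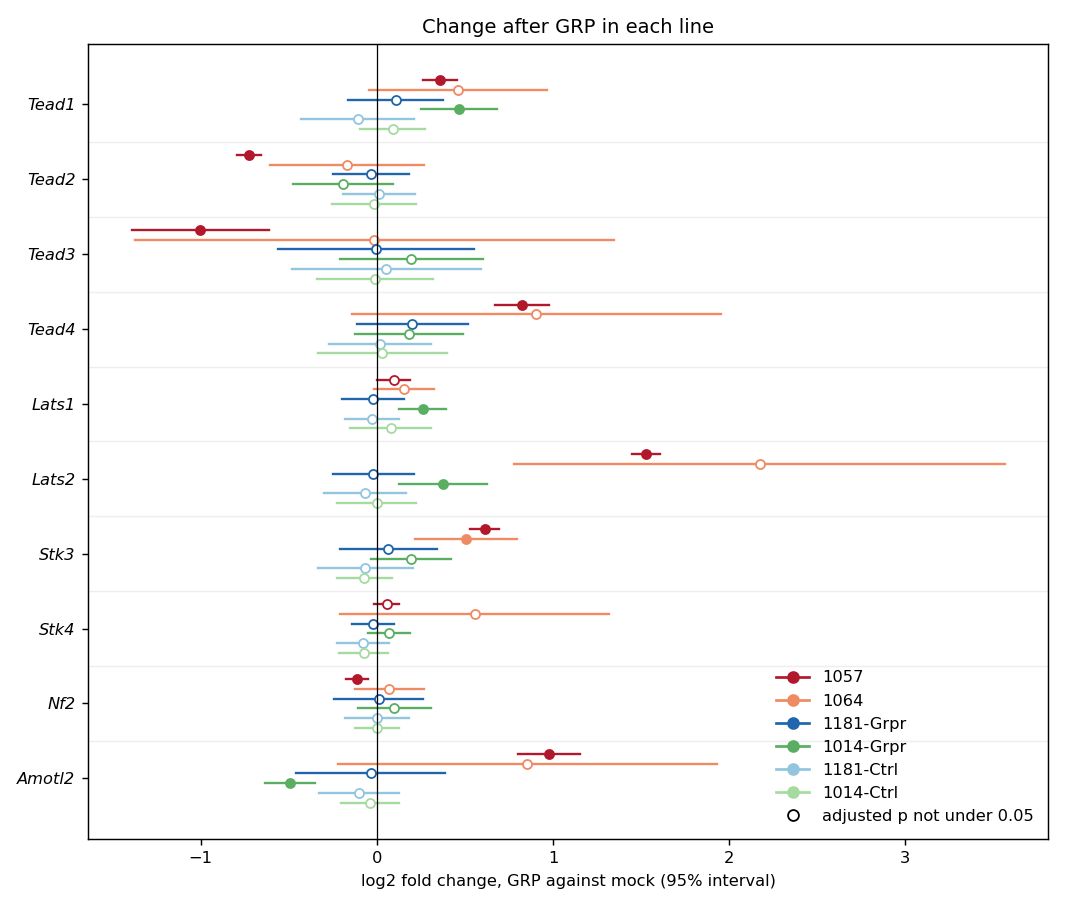
Points are log2 fold changes of GRP against mock in each of the 6 lines, bars their 95% intervals, and filled points passed at an adjusted p under 0.05. Lats2 lies furthest to the right in 1064 (2.17) and 1057 (1.53), and Amotl2 lies right of 0 in 1057 and left of it in 1014-Grpr.

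Among the TEAD genes, GRP shifted the balance in 1057 from Tead2 and Tead3 towards Tead1 and Tead4. Tead4 went from 11.3, 11.0 and 9.86 CPM under mock to 19.3, 18.0 and 18.6 CPM under GRP, with no overlap (log2 fold change 0.82, SE 0.072, adjusted p = 2.04e-08). Tead1 went from 225, 238 and 238 CPM to 301, 281 and 301 CPM, also without overlap (0.36, SE 0.046, adjusted p = 2.39e-06). Tead2, the leading TEAD gene of that line, went the other way and left a narrow band at 155, 156 and 154 CPM for one at 91.6, 92.4 and 92.6 CPM (-0.72, SE 0.032, adjusted p = 1.15e-12). Tead3 moved down with it, from 54 to 57 reads per library to 27, 31 and 21 (-1.002, SE 0.18, adjusted p = 1.59e-04). Tead3 gave -0.02 in 1064 (SE 0.61, adjusted p = 0.99) and 0.20 in 1014-Grpr (SE 0.19, adjusted p = 0.47).

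In 1014-Grpr the rise of Tead1 was of similar size, from 164, 154 and 198 CPM to 216, 239 and 249 CPM without overlap (0.46, adjusted p = 0.00412). Without replicate 2 it gave 0.37 with adjusted p = 0.089. Tead2 gave -0.19 there (adjusted p = 0.30, with the block 0.0174) and Tead4 gave 0.18 (adjusted p = 0.36, with the block 0.0468). In 1064 Tead4 was at 38.7, 17.6 and 28.7 CPM under mock and 91.4, 31.2 and 36.8 CPM under GRP. Each GRP library lay above the mock library of the same number while the groups overlapped (0.91, SE 0.47, adjusted p = 0.30), and with the block the change was 0.83 (adjusted p = 7.06e-04). Tead1 in 1064 gave 0.46 (adjusted p = 0.27), with the block 0.41 (adjusted p = 0.0332), and its library 1 alone reached 686 CPM under GRP beside 338 and 377.

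Lats2 stood at 46.3, 46.4 and 44.6 CPM in mock-treated 1057 cells and at 126, 130 and 133 CPM after GRP, the largest change of the 10 genes in that line (1.53, SE 0.038, adjusted p = 5.47e-16). In 1064 it went from 90.9, 33.3 and 60.3 CPM to 485, 164 and 184 CPM. There every GRP library exceeded every mock library, yet the spread was wide (2.17, SE 0.63, adjusted p = 0.0676, with the block 2.07 and 1.05e-04, by DESeq2 0.00331). In 1014-Grpr the change was smaller, from 38.6, 41.5 and 43.1 CPM to 44.5, 61.9 and 51.4 CPM (0.37, SE 0.11, adjusted p = 0.0277). It was not called without replicate 2 (0.24, adjusted p = 0.20) or without replicate 3 (0.42, adjusted p = 0.10).

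Lats1, its paralogue, had smaller values. In 1057 it gave 0.10 (adjusted p = 0.08, without replicate 2 0.14 and 0.0398) and in 1064 0.15 (adjusted p = 0.28, with the block 0.0378). In 1014-Grpr it rose from 70.0, 72.1 and 74.0 CPM to 81.8, 82.5 and 91.8 CPM (0.26, SE 0.061, adjusted p = 0.00698), and without replicate 1 it had adjusted p = 0.064. Whether the 2 paralogues differ in their response was not tested.

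Of the MST kinases, Stk3 went from 47.1, 44.9 and 47.7 CPM to 69.7, 69.2 and 71.2 CPM in 1057 (0.61, SE 0.039, adjusted p = 2.65e-10). In 1064 it went from 38.5, 32.5 and 35.4 CPM to 45.2, 61.6 and 44.2 CPM with no overlap (0.51, SE 0.13, adjusted p = 0.0477). That call was lost without any 1 of the 3 replicates (0.66, 0.29 and 0.59 without replicates 1, 2 and 3, adjusted p from 0.12 to 0.31). Stk3 gave 0.19 in 1014-Grpr (adjusted p = 0.19, with the block 5.15e-04). Stk4 passed in no line without the block. In 1064 it was at 131, 102 and 127 CPM under mock and 288, 104 and 136 CPM under GRP, so the change of 0.56 (adjusted p = 0.39, with the block 0.45 and 0.0446) came mostly from library 1.

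Nf2, the merlin gene, fell slightly in 1057, from 138, 140 and 136 CPM to 122, 128 and 126 CPM (-0.11, SE 0.029, adjusted p = 0.00337). It gave 0.10 in 1014-Grpr (adjusted p = 0.46, with the block 0.0191) and 0.07 in 1064 (adjusted p = 0.71). Amotl2 rose in 1057, where it went from 8.33, 8.39 and 8.21 CPM to 13.8, 17.3 and 17.0 CPM (0.98, SE 0.083, adjusted p = 1.25e-08). In 1014-Grpr, where it stood higher at rest, it fell from 70.1, 65.8 and 71.5 CPM to 47.6, 50.8 and 47.3 CPM (-0.49, SE 0.065, adjusted p = 1.59e-04), a call lost in 1 fit of all libraries (-0.51, adjusted p = 0.17). In both lines the groups did not overlap. In 1064 it was at 70.7, 32.8 and 33.0 CPM under mock and 131, 72.1 and 44.4 CPM under GRP (0.85, SE 0.49, adjusted p = 0.35, with the block 0.83 and 2.73e-04).

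**Figure D3:**
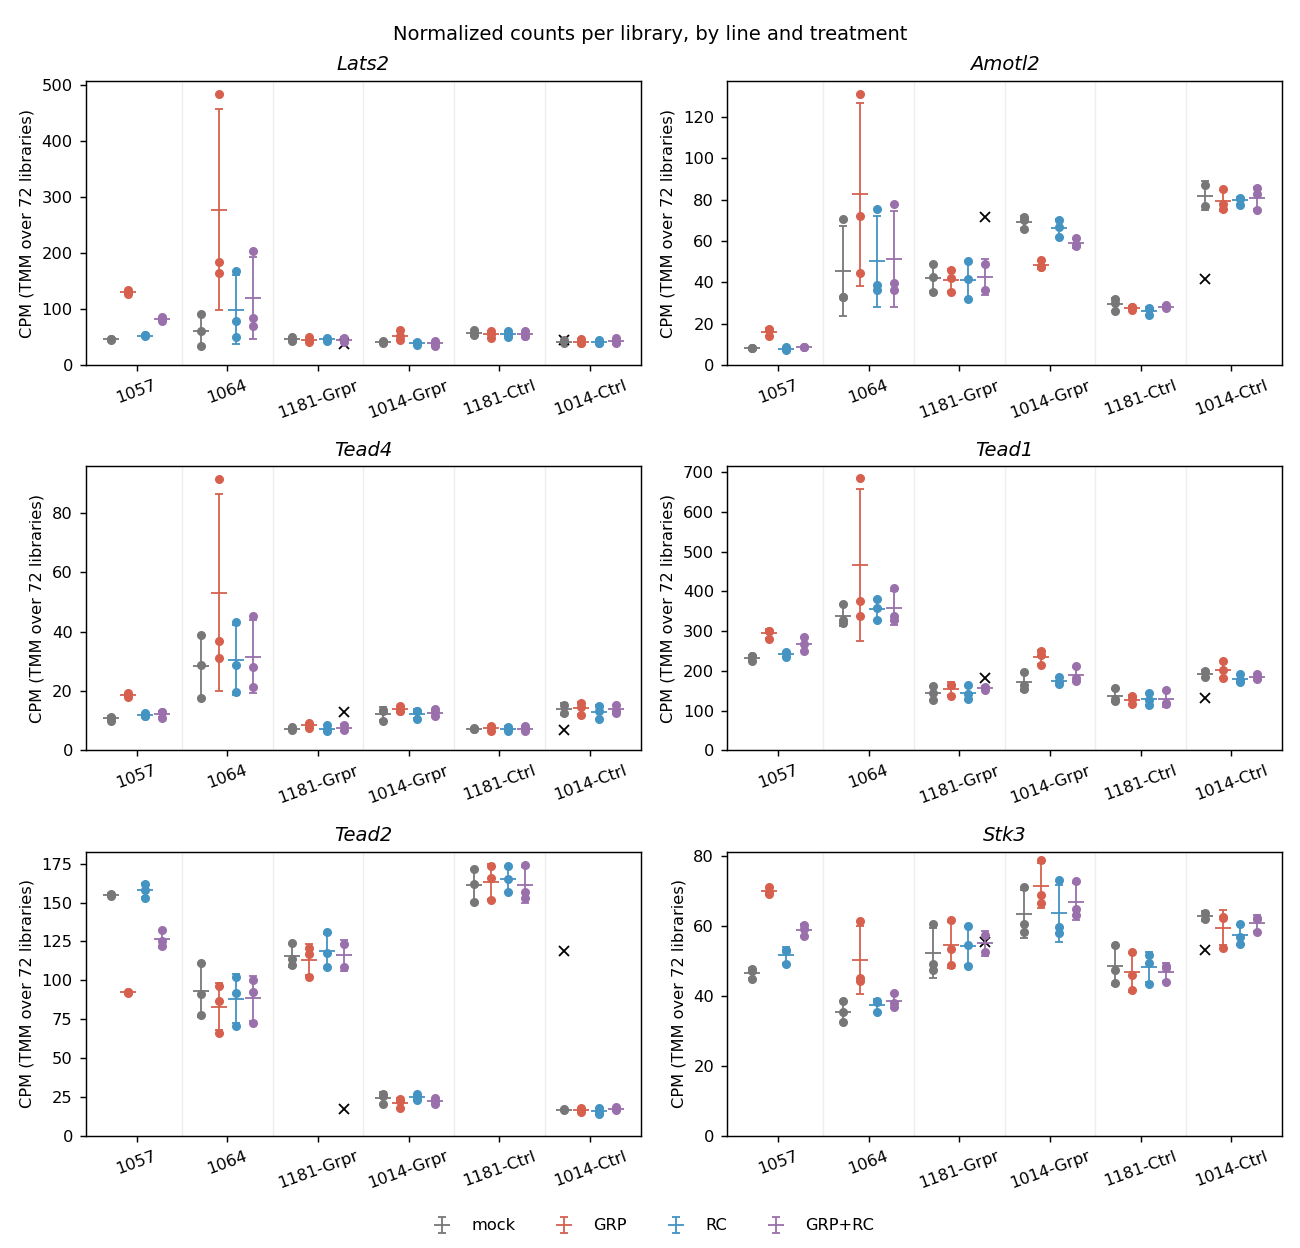
Each point is the CPM of 1 library (scaled over all 72 libraries) for 6 of the genes in the 6 lines, coloured by treatment, with the mean and SD of the libraries that passed the label check; black crosses are the 2 libraries that did not. In 1057 the GRP points of Lats2, Amotl2, Tead4, Tead1 and Stk3 lie above the mock points and those of Tead2 below, and in 1181-Ctrl and 1014-Ctrl the 4 treatments overlap.

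The lines with 0 calls bound what could have been missed. In 1181-Grpr Lats2 was at 49.8, 43.5 and 44.8 CPM under mock and 50.4, 44.2 and 41.4 CPM under GRP, and the 95% interval of its log2 fold change ran from -0.25 to 0.21. The same interval was -0.30 to 0.17 in 1181-Ctrl and -0.22 to 0.22 in 1014-Ctrl, so changes of the size seen in 1057 lie outside all 3. For Amotl2 in 1181-Grpr it was -0.46 to 0.39 and for Tead4 -0.11 to 0.52. Grpr was lowest among the GRPR-expressing lines in 1181-Grpr, and its part in this result was not tested.

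Averaged over the 4 GRPR-expressing lines in 1 fit of all lines, 7 of the 10 genes passed, beside 28.9% of all genes, and with the block 9, Tead3 (-0.21, adjusted p = 0.0034) and Stk4 (0.13, adjusted p = 0.0103) being added, beside 51.9%. Lats2 rose by 1.00 on the log2 scale (SE 0.15, adjusted p = 3.13e-07), Tead4 by 0.52, Tead1 by 0.34, Stk3 by 0.33, Amotl2 by 0.32 and Lats1 by 0.11, and Tead2 fell by 0.29. With the 2 libraries that failed the label check put back, Tead2, Lats1 and Amotl2 no longer passed (adjusted p = 0.28, 0.0593 and 0.0745). Without replicate 1 Lats1 was lost (0.08, adjusted p = 0.21), and Amotl2 was lost without replicate 2 (0.26, adjusted p = 0.38) or 3 (0.34, adjusted p = 0.11). Over the 2 control lines 0 passed, beside 0% of all genes (edgeR, 0 of 10 at an unadjusted p under 0.05, and 0 by DESeq2). The difference between both means passed for Lats2 (1.04, SE 0.26, adjusted p = 0.00717) and Stk3 (0.40, SE 0.096, adjusted p = 0.00435), beside 8.02% of all genes, and with the block also for Tead1, Tead2, Tead4 and Amotl2, beside 35.1%. Lats2 was not called in this difference without replicate 2 (0.94, adjusted p = 0.15) or 3 (1.12, adjusted p = 0.0984), nor Stk3 without replicate 1 (0.47, adjusted p = 0.0544) or 2 (0.30, adjusted p = 0.10), each taken out of all lines at once.

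The Grpr and Ctrl derivatives gave the same comparison within 1 parental line. The 1181 pair differed in more than the receptor. Xist was at 205 to 272 CPM in 1181-Grpr and at most 0.71 CPM in 1181-Ctrl, and 21% of all genes differed at rest. Between 1014-Grpr and 1014-Ctrl the GRP effect differed for 0 of the 10 genes, beside 3.57% of all genes (edgeR, 0 of 10 at an unadjusted p under 0.05, and 0 by DESeq2). With the block it differed for 3, Amotl2 (-0.49, adjusted p = 1.20e-04), Tead1 (0.33, adjusted p = 0.0399) and Stk3 (0.21, adjusted p = 0.0474), beside 30.6%. Between 1181-Grpr and 1181-Ctrl 0 differed with or without it, beside 0% (edgeR, 0 of 10 at an unadjusted p under 0.05, and 0 by DESeq2). The lines with an endogenous receptor, 1057 and 1064, gave 0 calls for a difference in the GRP effect, beside 1.44% of all genes (edgeR, 2 of 10 at an unadjusted p under 0.05, and 1 by DESeq2), and with the block differed for Tead2, Tead3, Lats2, Stk4 and Nf2, beside 20.9%.

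The opposite directions of Amotl2 were tested after they had been seen. Its GRP effect was higher in 1057 than in 1014-Grpr by 1.46 (SE 0.35, adjusted p = 0.00792), beside 3.22% of all genes, and higher in 1064 than in 1014-Grpr by 1.37 (SE 0.34, adjusted p = 0.0302), beside 1.15%. Lats2 differed too between 1064 and 1014-Grpr, by 1.81 (SE 0.42, adjusted p = 0.013). None of these 3 differences was called without replicate 2 or without replicate 3 (values of 1.33 to 1.97, adjusted p from 0.14 to 0.60), and the Amotl2 difference from 1064 was not called with all 72 libraries (adjusted p = 0.0818). With the block all 3 were called (Amotl2 1.46 and 1.33, adjusted p = 2.00e-13 and 2.41e-14, Lats2 1.72, adjusted p = 1.97e-11). Lats2 then also differed between 1057 and 1014-Grpr (1.15, adjusted p = 1.02e-07, without the block 0.14). Shares of all genes with the block are not given for these contrasts.

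RC alone gave 2 calls, both in 1057. In 1057 it raised Lats2 to 52.8, 52.9 and 52.1 CPM (0.20, SE 0.040, adjusted p = 0.00151) and Stk3 to 53.1, 49.2 and 52.9 CPM (0.15, SE 0.040, adjusted p = 0.0132), beside 24.3% of all genes, and the Stk3 call was lost without replicate 1 (0.13, adjusted p = 0.0796) or 3 (0.16, adjusted p = 0.0743). In each of the other 5 lines 0 of the 10 genes passed (edgeR, 0 of 10 at an unadjusted p under 0.05, and 0 by DESeq2), beside 0% of all genes. The largest of these values was Lats2 in 1064, at 168, 77.9 and 49.6 CPM, which overlapped mock (0.67, SE 0.61, adjusted p = 1).

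In 1057, 7 of the 10 genes differed between GRP+RC and GRP, beside 24.7% of all genes, each with the sign opposite to its GRP value, to which the shared GRP libraries contribute. In 1 fit of all libraries, again without a share of all genes, 0 of the 10 passed (adjusted p from 0.0777 to 1 for these 7). Amotl2 was at 8.84, 8.68 and 8.90 CPM under GRP+RC, 0.89 below GRP on the log2 scale (adjusted p = 2.62e-07), and no longer differed from mock (0.09, adjusted p = 0.46). Tead4 was at 12.8, 10.9 and 12.9 CPM, lower than under GRP by -0.63 (adjusted p = 2.91e-06). Lats2, at 83.5, 77.9 and 85.2 CPM, came between both without overlap with either (-0.68 against GRP, adjusted p = 3.44e-10, and 0.85 against mock, adjusted p = 5.02e-12). As a share of the GRP effect on the log2 scale, 9.07% was left for Amotl2, 23.7% for Tead4, 34.4% for Nf2, 39.6% for Tead2, 55.6% for Lats2, 56.2% for Stk3, 56.7% for Tead1 and 66.9% for Tead3. Both parts of such a share use the same mock libraries, and it carries no test.

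Against mock, 6 of the 10 genes still differed under GRP+RC in 1057, Lats2, Stk3, Tead1 and Tead4 higher and Tead2 and Tead3 lower, beside 44.3% of all genes, and in 1 fit of all libraries 1 did (Stk3). Tead4 was the weakest of them (0.20, adjusted p = 0.0458) and did not pass without replicate 1 (0.20, adjusted p = 0.13) or 3 (0.10, adjusted p = 0.42). Tead3 did not pass without replicate 2 (-0.60, adjusted p = 0.0621). Stk4 was lower under GRP+RC than under GRP by -0.10 (adjusted p = 0.0443), a call lost without any 1 replicate (adjusted p from 0.0562 to 0.46), and Tead1 (-0.16, adjusted p = 0.017) was lost without replicate 1 (-0.13, adjusted p = 0.10) or 2 (-0.14, adjusted p = 0.0686).

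In 1014-Grpr, 3 genes differed between GRP+RC and GRP, beside 11.8% of all genes. Lats2 was at 34.7, 42.4 and 39.5 CPM (-0.46, adjusted p = 0.0234) and Lats1 at 74.2, 70.5 and 76.6 CPM (-0.23, adjusted p = 0.0304). Amotl2 moved up again, to 61.4, 57.3 and 57.9 CPM (0.26, adjusted p = 0.022), and lay between its GRP and mock values without overlap. Lats1 and Amotl2 lost the call without any 1 replicate (adjusted p from 0.0540 to 0.21), and Lats2 lost it without replicate 2 (-0.38, adjusted p = 0.14) or 3 (-0.47, adjusted p = 0.13). With the block Tead1, Tead3 and Stk3 also passed, all lower, beside 38.7% of all genes. Against mock 0 passed under GRP+RC (edgeR, 1 of 10 at an unadjusted p under 0.05, and 0 by DESeq2), beside 0.947% of all genes, and with the block Tead1 (0.15) and Amotl2 (-0.23) did, beside 17.3%.

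In 1064, 0 passed between GRP+RC and GRP (edgeR, 1 of 10 at an unadjusted p under 0.05, and 0 by DESeq2), beside 0.029% of all genes. Lats2 was at 205, 83.9 and 70.3 CPM under GRP+RC, which gave -1.23 (SE 0.61, adjusted p = 0.56), with the block -1.21 (adjusted p = 0.00434). With the block Tead4, Stk3 and Amotl2 were lower too, beside 21.2% of all genes. Neither fit called any of the 10 under GRP+RC against mock, beside 0% of all genes in the fit without the block. In 1181-Grpr and the control lines 0 of the 10 passed in either comparison (edgeR and DESeq2, 0 at an unadjusted p under 0.05), beside 0% of all genes in edgeR.

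**Figure D4:**
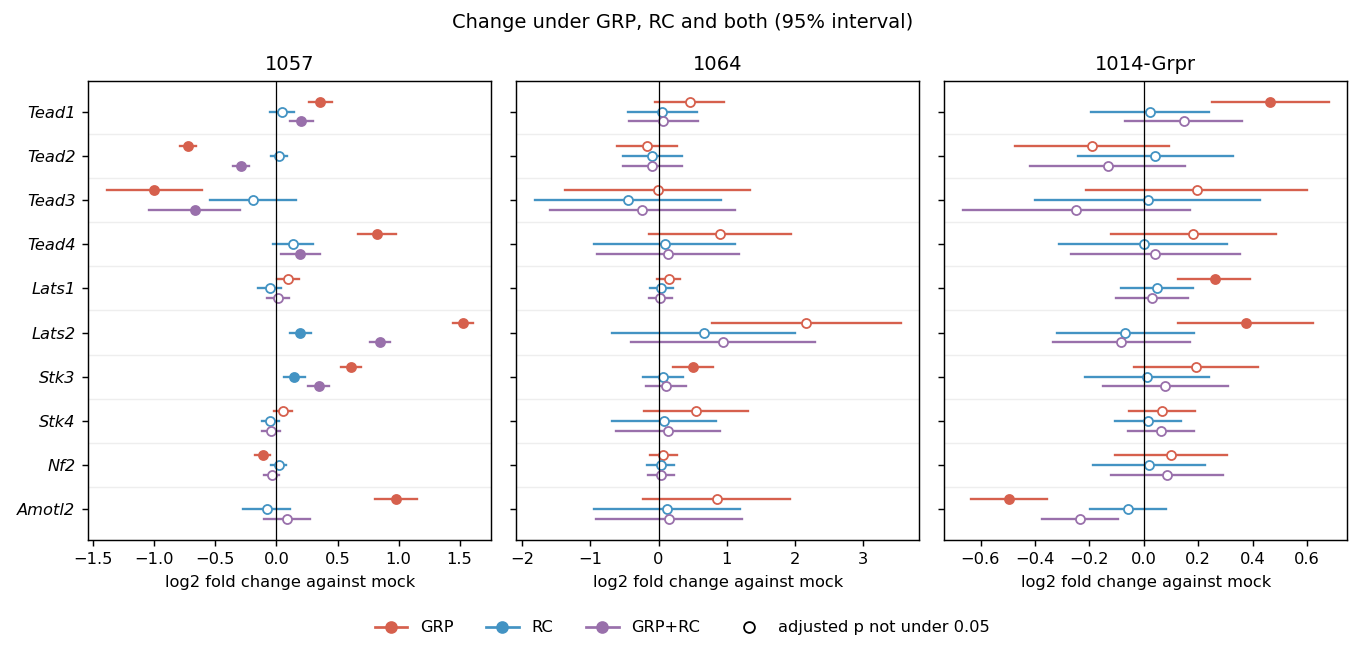
Log2 fold changes against mock under GRP, RC and GRP+RC with 95% intervals in 1057, 1064 and 1014-Grpr, the lines in which GRP gave any call, each with its own horizontal axis. Filled points passed at an adjusted p under 0.05. In 1057 the GRP+RC value of Lats2 (0.85) lies between RC (0.20) and GRP (1.53), while that of Amotl2 (0.09) lies beside 0.

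The rest of the pathway was read from 2 lists. Of 28 other Hippo genes (co-activators, adaptors, further kinases and cadherins), 24 could be tested in 1057, where 6 rose and 13 fell after GRP (median -0.12, beside -0.01 over all genes, of which 25.7% rose and 26.9% fell). In 1014-Grpr 5 rose and 5 fell of 24 (16.3% and 12.7% of all genes), with the block 8 and 8 (27.3% and 26.3%). In 1064 1 rose and 2 fell of 25 (3.62% and 2.76%), with the block 9 and 7 (20.5% and 23%). In 1181-Grpr and the control lines 0 passed (edgeR), beside 0% of all genes.

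The co-activators themselves went different ways. Wwtr1, which encodes TAZ, rose in 1014-Grpr from 133 ± 9.3 to 238 ± 17 CPM (SD, n = 3; 0.86, adjusted p = 2.08e-05) and in 1057 from 280 ± 8.3 to 322 ± 9.7 CPM (0.22, adjusted p = 8.56e-06). Yap1 fell in 1057 from 250 ± 5.3 to 217 ± 3.6 CPM (-0.18, adjusted p = 4.08e-05) and gave -0.04 in 1014-Grpr (adjusted p = 0.64). RC added to GRP lowered Wwtr1 in 1014-Grpr (-0.47, adjusted p = 0.0036). In 1057 it left Wwtr1 at -0.03 (adjusted p = 0.64) and lowered Yap1 further (-0.13, adjusted p = 0.00277).

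Of 20 known targets of YAP and TAZ, which do not include Lats2 or Amotl2, 17 could be tested in 1057, where 8 rose and 4 fell after GRP (median 0.09). In 1014-Grpr 9 of 15 rose and 0 fell (median 0.89, beside -0.02 over all genes), with the block 10 and 1, and in 1064 2 of 16 rose and 1 fell (median 0.62, beside -0.03), with the block 9 and 1. The shares of all genes are those given for the other list. In 1181-Grpr 0 of 15 passed, with the block 2 higher, and in the control lines 0. Ccn1 and Ccn2 encode matricellular proteins often read as YAP activity. Ccn1 went from 1.20 ± 0.21 to 21.5 ± 2.0 CPM in 1057 (4.19, adjusted p = 1.67e-15) and from 5.04 ± 1.9 to 228 ± 122 CPM in 1014-Grpr (5.49, adjusted p = 1.05e-05), n = 3 in each. Ccn2 went from 4.40 ± 0.72 to 11.8 ± 1.3 CPM in 1057 (1.45, adjusted p = 2.96e-09) and from 13.8 ± 1.8 to 255 ± 152 CPM in 1014-Grpr (4.22, adjusted p = 6.54e-06). In 1014-Grpr, the line where Amotl2 fell, these 2 targets thus rose, and GRP+RC against GRP lowered both (-3.45 and -3.46, adjusted p = 4.05e-04 and 7.94e-05). Nt5e, which encodes the ectonucleotidase CD73, rose by 3.77 in 1057 and 1.504 in 1014-Grpr, and Myof, the myoferlin gene, by 2.24 in 1014-Grpr and 1.13 in 1064.

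How the 10 genes moved together is given as a description over the 24 group means, centred within each line; the 4 groups of a line share their cells. Lats2, Stk3 and Tead4 ran closest (Pearson's r of 0.94 for Lats2 with Stk3, 0.93 for Tead4 with Stk3 and 0.92 for Tead4 with Lats2), and Tead2 ran against them (-0.71 with Lats2). Amotl2 followed Tead4 (0.81) more than Lats1 (0.21). Among 11955 genes tested in all lines, the closest to Lats2 were Ntn4 (0.99) and B4galt1 (0.98), and to Stk3 Hsp90b1 (0.98), Uap1 (0.98) and Edem1 (0.97). Closest to Tead1 were Reep3 (0.97), Zmiz1 (0.96) and Peak1 (0.96), and to Amotl2 Cdk14 (0.94), Cers6 (0.92) and Tmem50b (0.91).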

How the data were processed

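mRNA of 6 mouse melanoma lines under 4 treatments was sequenced in 72 stranded poly(A) libraries. The authors aligned reads with STAR to GRCm38.p5 (mm10) with GENCODE annotation and made expression matrices from it, with reads checked in FastQC 0.11.5 per the labels; the strand setting of the counting is not given in the sources used here. The deposited table of raw counts per gene was used for all tests, and the deposited TPM table (in part written with a decimal comma) only to compare genes with each other in mock cells. Of the gene IDs, 99.6% were paired with a name.

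Libraries in which Ddx3y or Grpr lay on the wrong side of 1 CPM for the labelled sex or receptor status (2 of 72) were left out, and all 72 were used as an alternative. Counts were fitted in edgeR 4.0.16 (R 4.3.3; filterByExpr, TMM scaling, quasi-likelihood F test), 1 fit per line for treatments and 1 fit of all 24 groups for differences between lines. Calls needed an adjusted p below 0.05 (Benjamini-Hochberg, all genes tested), and SEs were taken from the fold change and its F. Printed CPM are TMM-scaled over all 72 libraries. Alternatives were DESeq2 1.42.0, no filter on low counts, the replicate number as a block, 1 fit of all libraries for treatments, mock libraries only for levels at rest, each replicate number left out, and a 2-fold limit beside the adjusted p; 2 contrasts of GRP effects between lines (1057 or 1064 against 1014-Grpr) were added after the data were seen. The numbers do not come with a stated meaning in the labels, and the pairing rests on the correlation of deviations given above. The fits were tested on simulated data.

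The members and the lists of other genes were chosen with earlier results of these data known. Named are all 10 genes, Yap1, Wwtr1, genes of the lists called with a change over 2-fold after GRP in at least 2 GRPR-expressing lines (at most 6 a list), and the 3 genes closest to each member called in at least 2 of these lines, of which 1 is not reported here. Depth was 19512882 to 46862053 counts per library, and Tead3 in 1057 rests on 21 to 57 reads per library.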

Additional observations from a re-analysis of the deposited data

Results flagged for a closer look

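The response to GRP differed between groups of lines, in a test of the difference itself, for 2 of the 10 genes, beside 8.02% of all genes. Lats2 was 1.04 higher on the log2 scale in the mean effect over the 4 GRPR-expressing lines than over the 2 control lines (adjusted p = 0.00717, edgeR's quasi-likelihood test), higher in 3 of those 4 lines, and Stk3 was 0.40 higher (adjusted p = 0.00435), positive in all 4. Between single GRPR-expressing lines, the GRP effect on Amotl2 exceeded that in 1014-Grpr by 1.46 in 1057 (adjusted p = 0.00792) and by 1.37 in 1064 (adjusted p = 0.0302), and that on Lats2 by 1.81 in 1064 (adjusted p = 0.013). Without replicate 2 or 3 Lats2 lost its call against the control lines, and Stk3 lost its own without replicate 1 or 2. The last 3 differences came from contrasts chosen after the data were seen. None of these 3 was called without replicate 2 or without replicate 3. In those contrasts with 1014-Grpr, 3.22% (1057) and 1.15% (1064) of all genes passed. Amotl2 differed most at rest between these lines, with 8.31 CPM in 1057, 45.5 CPM in 1064 and 69.1 CPM in 1014-Grpr. The part of the resting level in the direction of Amotl2 was not tested.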

How the results depend on the processing

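Of 2320 values of single genes under alternatives, 2189 kept their direction and side of the threshold, 59 gained the call, 72 lost it and none that was called changed sign, while 177 uncalled values did change sign. Counts of the 10 genes called moved as follows. They show only how the processing moved the counts. The shares of all genes are given above for some of these settings and not for others, so the counts do not compare the 10 genes with all genes. With 1 fit of all libraries, GRP against mock gave 5 in 1057, 6 in 1064 and 2 in 1014-Grpr, RC against mock 0 in 1057, GRP+RC against mock 1 in 1057, and GRP+RC against GRP 0 in 1057, 2 in 1064 and 0 in 1014-Grpr; that fit shares 1 estimate of the spread over all lines. With the replicate block, GRP against mock gave 7 in 1064 and 8 in 1014-Grpr, GRP+RC against GRP 4 in 1064 and 6 in 1014-Grpr, GRP+RC against mock 2 in 1014-Grpr, and the differences of GRP effects 6 (GRPR-expressing minus control lines), 3 (1014-Grpr minus 1014-Ctrl), 5 (1057 minus 1064), 7 (1057 minus 1014-Grpr) and 5 (1064 minus 1014-Grpr). With a 2-fold limit as well, GRP against mock gave 2 in 1057, 0 in 1064 and 0 in 1014-Grpr, RC against mock and GRP+RC against mock 0 each in 1057, GRP+RC against GRP 0 each in 1057 and 1014-Grpr, the mean GRP effect and the GRPR-expressing minus control difference 1 each, and resting levels 33. DESeq2 gave 2 for GRP in 1064 and 1 for 1057 minus 1064, no filter on low counts gave 0 for GRP in 1064, and all 72 libraries gave 4 for the mean GRP effect and 1 for 1064 minus 1014-Grpr. Leaving out 1 replicate number gave 1 to 2 for RC against mock in 1057, 0 for GRP in 1064, 2 to 4 for GRP in 1014-Grpr, 0 to 1 for GRP+RC against GRP in 1014-Grpr, 0 to 1 for GRPR-expressing minus control lines, 0 to 3 for 1057 minus 1014-Grpr and 0 to 2 for 1064 minus 1014-Grpr. The cause of the other shifts was not tested, apart from the fewer samples of the fits that leave replicates out. Resting levels between lines were not tested with the block, since replicate numbers lie within lines and such a contrast would rest on 1 replicate. Low counts limit Tead3 in 1057, and the spread between replicates limits 1064.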
